A study of Homo sapiens with 18 samples.

Results

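The 7 genes described here brake growth or belong to the epithelial targets of p53: BTG2, RRAD, PLK2, PLK3, SERPINB5, SULF2 and TP53INP1. They are 7 of the 18475 genes in the deposited table and were matched by their Entrez identifiers. They were chosen by these measured values, because several of them are among the strongest rises in irradiated BEAS-2B or A549 cells, so their responses in those lines are a description and carry no test. RNA was sequenced in BEAS-2B, a line of lung epithelial cells, in A549, a line of lung adenocarcinoma, and in H446, a line of small cell lung cancer, all labelled wild type. Each line has 3 control libraries and 3 libraries irradiated with 10 Gy of X-rays, 18 in all, and RNA was taken 24 h after irradiation. The control libraries are titled "before" and have no time given, so whether they were taken at the same time is unknown. The study asked how normal lung epithelium and lung cancer cells differ in their response to radiation. Each group comes from 1 established line, and nothing in the labels says that the libraries of a group came from separate cultures, so p-values measure only the spread between these libraries.

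Ionizing radiation breaks DNA, and the kinases that sense the breaks stabilize the transcription factor p53. p53 binds a pair of short half-sites near its target genes and raises their transcription. Its targets halt the cell cycle, repair DNA, shift metabolism or start apoptosis. BTG2 slows proliferation and binds the CCR4-NOT complex that shortens poly(A) tails. RRAD is a small GTPase of the RGK family that binds the beta subunits of calcium channels. PLK2 and PLK3 are polo-like kinases of the stress response, unlike PLK1 and PLK4, which drive mitosis and centriole duplication. TP53INP1 is a nuclear stress protein that works with HIPK2 on p53 and binds LC3 family proteins in autophagy. SERPINB5 (maspin) is an epithelial serpin that restrains invasion, and SULF2 is a secreted endosulfatase that trims sulfate groups from heparan sulfate.

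The genes were placed by GENCODE 29 on GRCh38. BTG2 spans chr1:203305491-203309602 on the plus strand and PLK3 chr1:44800225-44805990 on the plus strand. RRAD spans chr16:66921679-66925644 on the minus strand, and PLK2 spans chr5:58453982-58460260 on the minus strand. SERPINB5 spans chr18:63476761-63505085 on the plus strand and SULF2 chr20:47656348-47786616 on the minus strand. The 250 bases before the RefSeq start sites (GRCh38.p14) were searched for the p53 half-site consensus of 10 bases, allowing 1 mismatch outside its fixed C and G. The consensus reads the same on both strands, so that 1 search covers both. Such a half-site stands in 39.3% of all 35116 promoter windows, and an exact half-site in 5.57%. Windows of 5 of the 7 genes were searched, and those of RRAD and TP53INP1 were not. BTG2, PLK3 and the 4 windows of SULF2 held none of these letters. PLK2 held 2 half-sites that overlap, 1 of them exact, and SERPINB5 held 3 with 1 mismatch each, while 9.64% of all windows hold 2 or more. PLK2 and SERPINB5 are shown because they held half-sites and because each was not higher after irradiation in a line where the other 6 genes were. In the 30 bases given for each, capitals mark the half-sites. The PLK2 stretch is at chr5:58460201-58460230 on the minus strand, and its capitals begin at base -137, counted from the start site. The SERPINB5 stretches are at chr18:63476708-63476737, chr18:63476751-63476780 and chr18:63476823-63476852 on the plus strand, with capitals that begin at bases -243, -197 and -125. The PLK2 stretch and the last 2 of SERPINB5 lie in or across an untranslated exon of a longer GENCODE 29 transcript.
PLK2: ggtggcgGGACAAGACTTGCTTcccggcca
SERPINB5 at -243: ttgccgtACGCATGTCTgtacgtatgcatg
SERPINB5 at -197: cttcctgcccGAACATGTTGgaggcctttt
SERPINB5 at -125: tttcaattgtGGACAAGCTGccaagaggct

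The values were taken as FPKM, which scales the reads of a gene by its length and by the size of its library, and the number of reads is unknown. The total FPKM per library lay between 461255 and 529936. By a rough estimate from 66 genes assumed to be seen at about 1 read, the deepest library was 1.21 times as deep as the shallowest. One irradiated library stood apart, BEAS-2B 10 Gy replicate 2. Of 28 other p53 targets tested in BEAS-2B, 12 were above all controls in it, against 26 and 27 in the other irradiated libraries. The share of all genes above all controls was not counted. The median difference of replicate 2 from the control mean over these targets was 0.03 on the log2 scale, against 0.58 and 0.89. It was kept, since its label puts it in the irradiated group, and the BEAS-2B responses below are given with and without it. It was singled out by its p53 targets, so calls of such targets without it depend on that choice. GC content also varied among these libraries: Spearman's rho, over genes, between GC content and the deviation from the BEAS-2B mean was 0.705 in this library and ran from -0.629 in control replicate 1 to 0.449 in the other libraries. KRT7, KRT8 and KRT18, keratins of simple epithelia, were high in all lines, at mean FPKM of 315, 522 and 483 in BEAS-2B controls, and so was the mesenchymal filament gene VIM, at 898. The other mesenchymal markers, COL1A1, COL1A2, PDGFRB, LUM and DCN, were far lower than VIM in the controls of every line. Their highest mean was 11.7 in BEAS-2B (PDGFRB), 8.63 in A549 (COL1A1) and 16.1 in H446 controls (LUM). CDH1, which encodes E-cadherin, was at 0.460 in BEAS-2B, 7.05 in A549 and 0.587 in H446 controls, and the basal keratin KRT5 was at or near 0 in all lines. The 5 lung lineage markers in the table were below 1 in the controls of every line. CHGA, SYP and NCAM1, markers of neuroendocrine cells, were at 0.0167, 0.190 and 0.00333 in H446 controls, and the mean of NCAM1 was 4.66 in BEAS-2B controls. The line labelled as small cell cancer thus lacked these 3 markers, while its KRT7, KRT8 and KRT18 were the highest of the 3 lines. KRT19, at 2.29 against 9.80 in BEAS-2B and 26.2 in A549, was lowest in H446, and EPCAM was at 1.11 against 2.37 in BEAS-2B and 0.487 in A549.

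BTG2 (Entrez 7832) was higher in irradiated BEAS-2B and A549 cells. In BEAS-2B the controls were at 6.90, 7.12 and 6.40 FPKM and the irradiated libraries at 25.7, 7.05 and 33.8. Irradiated replicate 2 lay among the controls and the other irradiated libraries far above them. The ratio of means was 3.26, and 4.37 without that library. In A549 the controls were at 9.99, 8.37 and 8.70 and the irradiated libraries at 27.2, 28.2 and 24.6, a ratio of 2.96 with no overlap. In H446, the contrast that did not choose the genes, the controls were at 2.12, 1.98 and 1.87 and the irradiated libraries at 2.58, 2.62 and 2.27. All irradiated H446 libraries were above all controls, and the rise passed the test by a small margin (log2 fold change 0.22, SE 0.08, n = 3 per group, limma, adjusted p = 0.0409). In bulk libraries, fewer cells of a type and less RNA per cell cannot be told apart.

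RRAD (Entrez 6236) was near 1 FPKM in control BEAS-2B and A549 cells and hardly measured in H446. The BEAS-2B controls were at 1.01, 0.90 and 1.07 and the irradiated libraries at 6.61, 1.47 and 8.64. Every irradiated library was above every control here, replicate 2 by the least, and the ratio of means was 5.61, or 7.68 without replicate 2. The A549 controls were at 1.2, 0.82 and 1.09 and the irradiated libraries at 2.45, 2.47 and 3.43, a ratio of 2.68 without overlap. The H446 controls were at 0.20, 0 and 0.24 and the irradiated libraries at 0.19, 0.19 and 0.27. These groups overlapped and RRAD was below 1 FPKM in all 6 libraries, so it did not enter the H446 fit. An exact two-sided permutation test gave p = 0.6, where the smallest value that 3 against 3 libraries allow is 0.1.

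PLK2 (Entrez 10769) had the highest level of the 7 genes in BEAS-2B and A549 cells, and was the only one with a lower mean after irradiation in BEAS-2B. The BEAS-2B controls were at 322, 317 and 308 FPKM and the irradiated libraries at 301, 291 and 297. All irradiated libraries, replicate 2 included, were slightly below all controls, with a ratio of 0.939, or 0.947 without replicate 2. The A549 controls were at 62.4, 61.6 and 62.3 and the irradiated libraries at 98.4, 105 and 105, a ratio of 1.65 with no overlap. The H446 controls were at 30.3, 29.7 and 28.9 and the irradiated libraries at 40.1, 45.5 and 42.8. PLK2 had the clearest rise of the 7 genes in H446 (log2 fold change 0.51, SE 0.05, n = 3 per group, limma, adjusted p = 3.2e-05). It was the only member called in H446 under every alternative tried.

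PLK3 (Entrez 1263) had a higher mean in irradiated BEAS-2B and A549 cells than in their controls. The BEAS-2B controls were at 3.08, 3.35 and 3.38 FPKM and the irradiated libraries at 10.6, 3.41 and 11.2. Replicate 2 lay just above the highest control, and the ratio of means was 2.56, or 3.32 without it. The A549 controls were at 5.52, 5.55 and 5.08 and the irradiated libraries at 9.34, 8.75 and 9.50, a ratio of 1.71 with no overlap. The H446 controls were at 5.19, 5.20 and 4.97 and the irradiated libraries at 5.16, 4.08 and 4.85. The H446 groups overlapped, and no difference passed the test (log2 fold change -0.11, SE 0.08, 95% interval -0.28 to 0.06, limma, adjusted p = 0.289).

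TP53INP1 (Entrez 94241), which spans chr8:94925972-94949411 on the minus strand, had the highest fold of the 7 genes in A549. Its A549 controls were at 3.62, 3.49 and 3.31 FPKM and the irradiated libraries at 15.4, 16.3 and 16.0, a ratio of 4.57 with no overlap. The BEAS-2B controls were at 6.89, 6.30 and 6.76 and the irradiated libraries at 12.7, 5.69 and 14.9. Replicate 2 was below every control, and the ratio of means was 1.67, or 2.08 without it. The H446 controls were at 2.10, 1.82 and 1.80 and the irradiated libraries at 2.83, 2.61 and 2.31. All irradiated H446 libraries were above all controls, and the rise passed the test (log2 fold change 0.30, SE 0.08, limma, adjusted p = 0.0158), but not with the GC trend removed or with all 18 libraries in 1 fit.

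SERPINB5 (Entrez 5268) had the largest fold of the 7 genes in BEAS-2B and was not higher in either irradiated cancer line. The BEAS-2B controls were at 1.05, 0.75 and 0.96 FPKM and the irradiated libraries at 9.93, 0.74 and 17.0. Replicate 2 was at the level of the lowest control, and the ratio of means was 10.0, or 14.6 without it. Only 1 BEAS-2B control reached 1 FPKM, so the gene passed the filter in this line through its irradiated libraries. The A549 controls were at 4.67, 4.69 and 4.68 and the irradiated libraries at 3.37, 4.13 and 4.16, all lower, a ratio of 0.830. The H446 controls were at 68.3, 69.2 and 68.4 and the irradiated libraries at 58.6, 63.4 and 64.5. In H446, where the gene was expressed far above the other lines, irradiated libraries were below controls without overlap (log2 fold change -0.14, SE 0.04, limma, adjusted p = 0.0205).

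SULF2 (Entrez 55959) had its largest fold in A549. Its A549 controls were at 7.37, 7.56 and 7.58 FPKM and the irradiated libraries at 26.4, 25.3 and 26.7, a ratio of 3.48 with no overlap. The BEAS-2B controls were at 8.09, 10.1 and 8.03 and the irradiated libraries at 12.6, 9.62 and 12.8. Replicate 2 lay inside the control range, and the ratio of means was 1.33, or 1.45 without it. The H446 controls were at 1.81, 1.61 and 1.95 and the irradiated libraries at 1.92, 1.75 and 1.88. These groups overlapped, and no difference passed the test (log2 fold change 0.03, SE 0.08, 95% interval -0.14 to 0.21, limma, adjusted p = 0.77).

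**Figure D1:**
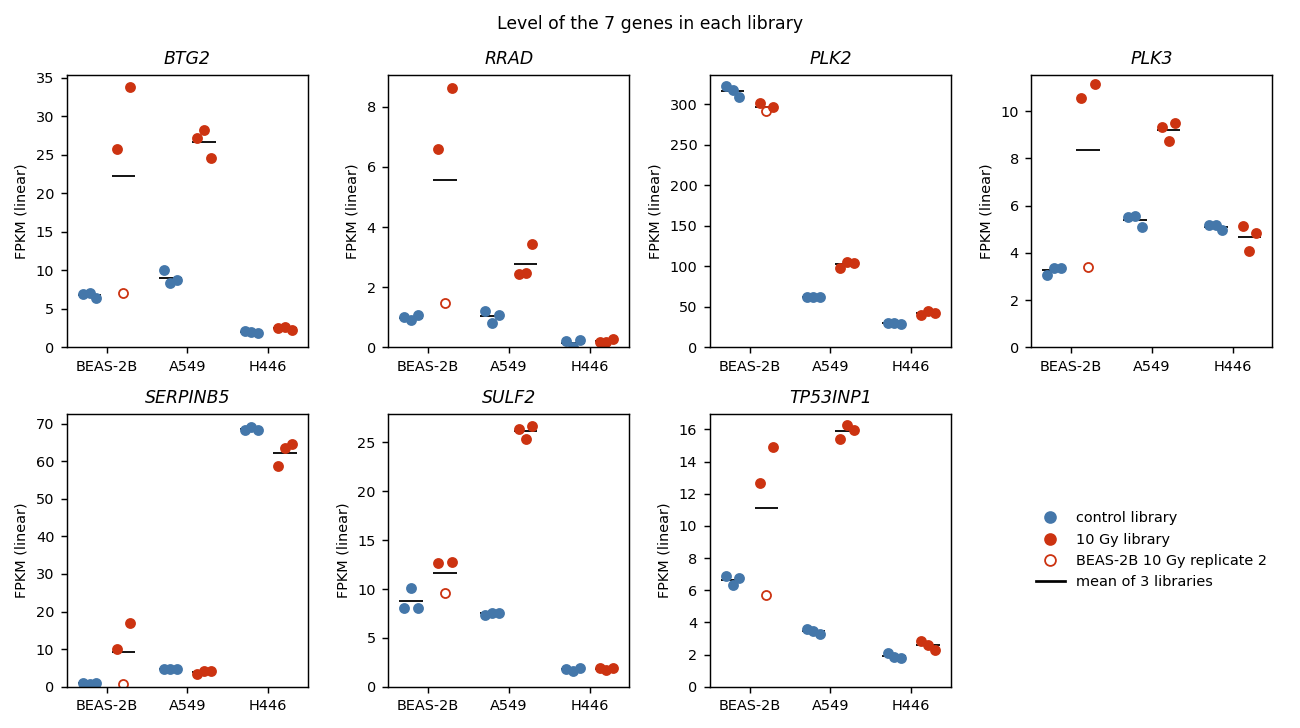
FPKM (y axis, linear, from 0) of each of the 7 genes in each of the 18 libraries, by line (x axis), with control libraries in blue, irradiated libraries in red, BEAS-2B 10 Gy replicate 2 as an open circle and the mean of each group of 3 as a bar. The open circle lies within or close to the range of the controls in every panel, SERPINB5 is highest in H446 at 58.6 to 69.2, and PLK2 is highest in BEAS-2B at 291 to 322.

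The order of the 7 genes was not the same in each line. The differences of log2(FPKM + 1) from the control mean of the line are shown in the colour plot for each irradiated library. In BEAS-2B, SERPINB5 led with 2.51 and 3.23 in replicates 1 and 3, followed by RRAD with 1.93 and 2.27 and BTG2 with 1.78 and 2.16. The same genes were at -0.14, 0.31 and 0.05 in replicate 2. In replicates 1 and 3, 6 of the 7 genes were above all controls, and in replicate 2 there were 2. In A549, TP53INP1 led with 1.87 to 1.95, followed by SULF2 with 1.63 to 1.70 and BTG2 with 1.36 to 1.55. In each A549 library 6 of the 7 were above all controls, with SERPINB5 the exception. The share of all genes above all controls was not counted in any library, so these counts have no background. In H446 the differences ran from -0.27 to 0.60 over all 7 genes, and PLK2 led in every irradiated library. The name of the group, radiation-induced, did not hold in every line: PLK2 was not higher after irradiation in BEAS-2B, and SERPINB5 was higher there alone. Differences between the lines' responses were not tested for the 7 genes, since the choice rested on these responses.

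**Figure D2:**
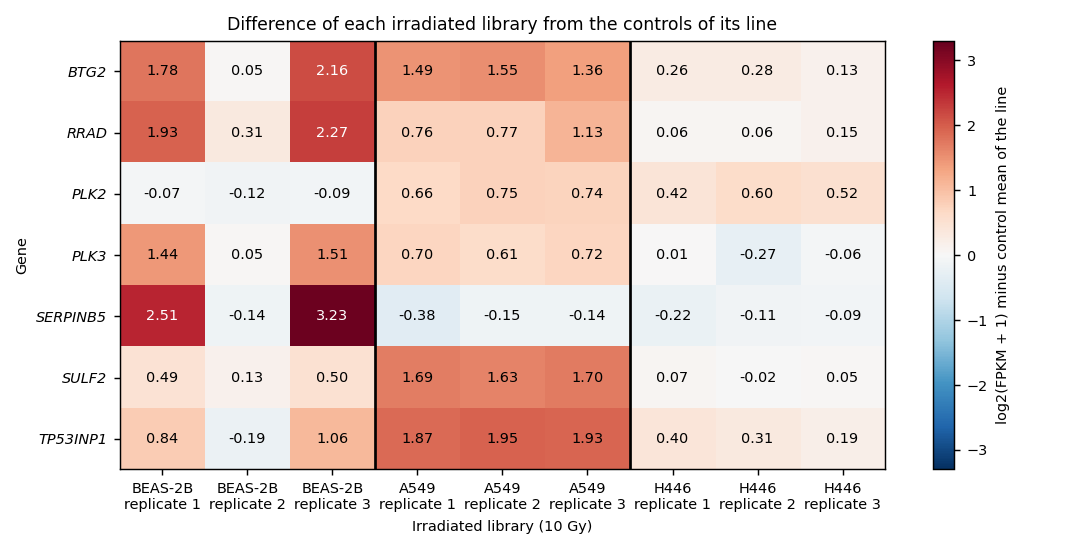
Difference of log2(FPKM + 1) from the control mean of the same line (colour and printed value), for the 7 genes (rows) in the 9 irradiated libraries (columns). BEAS-2B replicate 2 stays between -0.19 and 0.31, whereas the other BEAS-2B libraries reach 3.23 for SERPINB5, and no H446 value exceeds 0.60.

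The fit in BEAS-2B with all 6 libraries called 0 of 11734 genes by limma, which is 0% of them, although 1446 had an unadjusted p under 0.05 and the smallest adjusted p was 0.241. Without BEAS-2B 10 Gy replicate 2, 1.9% of the genes were called higher and 0.0682% lower. In A549, 25.3% of 11993 genes were called higher and 26.4% lower. These shares are the background of the contrasts that chose the 7 genes.

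In H446, 14.8% of 11479 genes were called higher and 23.6% lower, and 6 of the 7 genes were tested. The split depended on the scaling: of the called genes, 38.5% were higher here, 51.2% with the GC trend removed and 49.9% with quantile normalization. BTG2, PLK2 and TP53INP1 were called higher and SERPINB5 lower. The median log2 fold change of the 6 was 0.13, beside -0.03 over all genes tested. Only the rise of PLK2 was as large as 0.5 on the log2 scale, and the other called differences lay between 0.14 and 0.30 in size. The calls of BTG2, SERPINB5 and TP53INP1 depended on single libraries. BTG2 was not called without H446 10 Gy replicate 1 or 2 or without any 1 of the H446 controls (adjusted p between 0.056 and 0.126), SERPINB5 was not without any 1 of the H446 controls (0.0532 to 0.0696), and TP53INP1 was not without H446 control replicate 2 (0.0562) or 3 (0.0536). The GC content of transcripts also moved with the groups: Spearman's rho, over genes, between GC content and the deviation of a library from the H446 mean was 0.347 to 0.459 in the controls and -0.496 to -0.106 in the irradiated libraries. With all 18 libraries in 1 fit, the adjusted p was 0.627 for BTG2, 0.849 for SERPINB5 and 0.251 for TP53INP1. With the GC trend removed, TP53INP1 had an adjusted p of 0.0605, BTG2 of 0.0208 and SERPINB5 of 0.00263, and the difference of PLK3 was 0.06 rather than -0.11.

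Unirradiated cells of the 3 lines differed in nearly every one of the 7 genes, as they did over the genome. The comparisons share control libraries, and 85.1% of 12854 genes were called between A549 and BEAS-2B, 82.6% between H446 and BEAS-2B and 84.4% between H446 and A549, so a call of single genes says little here. The BEAS-2B and A549 controls also entered the responses that chose the 7 genes, and these p-values are not independent of that choice. SERPINB5 had the widest range, at 0.920 ± 0.154 FPKM (SD, n = 3) in BEAS-2B, 4.68 ± 0.0100 in A549 and 68.6 ± 0.491 in H446. Its log2 difference was 3.62 (SE 0.06) between H446 and A549, with a limma adjusted p of 3.4e-14. Only 1 BEAS-2B control reached 1 FPKM, so the gene entered this fit through the higher lines, and its log2 differences to BEAS-2B, 5.18 for H446 and 1.57 for A549, are a description. PLK2 ran the other way, at 316 ± 6.79 in BEAS-2B, 62.1 ± 0.422 in A549 and 29.6 ± 0.676 in H446. A549 was lower than BEAS-2B by a log2 difference of -2.33 and H446 by -3.37 (SE 0.04 each, limma adjusted p of 2.4e-14 and 1.1e-15). BTG2, RRAD, SULF2 and TP53INP1 were lowest in H446, with log2 differences to BEAS-2B of -1.38, -0.80, -1.80 and -1.40 and to A549 of -1.74, -0.83, -1.61 and -0.62. The 6 differences of BTG2, SULF2 and TP53INP1 were called by limma, with adjusted p of 1.4e-06 or less. RRAD was below 1 FPKM in every H446 control and entered this fit through the BEAS-2B and A549 controls, so it had to be lower in H446 and its values are a description.

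Between A549 and BEAS-2B, the smaller differences were less certain. TP53INP1 was lower in A549 by a log2 difference of -0.77 (SE 0.07, limma adjusted p = 1.6e-07). PLK3 was higher in A549 by 0.58 and in H446 by 0.52 than in BEAS-2B (SE 0.06 each, limma adjusted p of 1.3e-06 and 4.1e-06). Between H446 and A549 PLK3 did not pass the test (-0.06, 95% interval -0.19 to 0.07, adjusted p = 0.369), and with the GC trend removed it was called lower in H446 (-0.16, limma adjusted p = 0.0121). BTG2 was higher in A549 by 0.36 (SE 0.07, adjusted p = 5.3e-04), a call lost with all 18 libraries in 1 fit (0.295). SULF2 was lower by -0.19 (SE 0.08, adjusted p = 0.0488), and the call was lost under 13 of 19 alternatives. The RRAD difference was 0.03 (95% interval -0.17 to 0.23, adjusted p = 0.786) and changed sign under 3 alternatives. In all, without SERPINB5, 5 of 6 genes were called between A549 and BEAS-2B, beside 85.1% of all genes. Without RRAD, 5 of 6 were called between H446 and A549, beside 84.4%. Without both, 5 of 5 were called between H446 and BEAS-2B, beside 82.6%.

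Over the 6 groups, the order of the levels set BTG2 highest in irradiated A549, at 26.7 ± 1.85 FPKM (SD, n = 3), and irradiated BEAS-2B next, at 22.2 ± 13.7, groups that overlapped. RRAD and PLK3 likewise overlapped between these groups, with RRAD at 5.57 ± 3.7 in irradiated BEAS-2B and 2.78 ± 0.560 in irradiated A549. PLK3 was at 8.38 ± 4.31 and 9.20 ± 0.395. The wide BEAS-2B spreads contain replicate 2, and without it RRAD and PLK3 were higher in irradiated BEAS-2B than in irradiated A549 with no overlap, while BTG2 still overlapped. SULF2, at 26.1 ± 0.720, and TP53INP1, at 15.9 ± 0.434, were highest in irradiated A549, apart from irradiated BEAS-2B at 11.7 ± 1.77 and 11.1 ± 4.81. For PLK2, each of the 6 groups was apart from its neighbours in the order. Irradiated A549, at 103 ± 3.76, stayed below BEAS-2B, and irradiated H446, at 42.8 ± 2.68, below A549 controls. For SERPINB5, irradiated BEAS-2B overlapped with A549 controls through replicate 2 alone and was above them without it, and both H446 groups were apart from all others.

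Relatives of the 7 genes were examined in each line. Of 25 relatives in the BTG/TOB, RGK, polo-like kinase, clade B serpin, sulfatase and TP53INP families, 24 were in the table. In BEAS-2B 0 of 16 tested were called by limma, with 5 at an unadjusted p under 0.05. Without 10 Gy replicate 2, 3 were called higher, beside 1.9% of all genes called higher in that fit. TOB1, an antiproliferative relative of BTG2, was 1 of them (log2 fold change 0.55, adjusted p = 0.0082). The others were GEM, a GTPase of the family of RRAD (0.64, adjusted p = 0.0056), and PLK1 (0.47, adjusted p = 0.0376). With all libraries the same genes were at 0.40, 0.46 and 0.42. The median over the relatives was 0.03, and 0.05 without that library. None of the other clade B serpins was called in BEAS-2B by limma in either fit, and those tested lay between -0.08 and 0.17 with all libraries and between -0.06 and 0.31 without 10 Gy replicate 2.

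In A549, 4 of 15 tested relatives were called higher and 8 lower by limma, with a median of -0.18, beside 25.3% and 26.4% of all genes. TOB1 rose by 0.76 (SE 0.04, adjusted p = 4.6e-08), from 46.0 ± 0.797 to 78.9 ± 3.85 FPKM (SD, n = 3). BTG1 fell by 0.20 and TOB2 fell by 0.29, so that the antiproliferative BTG/TOB genes moved both ways. GEM fell by 0.24 (adjusted p = 0.00699) and PLK4 fell by 0.26 (adjusted p = 0.00254). Of the serpins, SERPINB8 fell by 0.64 (adjusted p = 5e-05), SERPINB11 fell by 0.42, SERPINB1 fell by 0.26 and SERPINB2 fell by 0.18, while SERPINB6 rose by 0.24 and SERPINB9 by 0.21. In H446, 5 of 13 were called higher and 1 lower, with a median of 0.09, beside 14.8% and 23.6% of all genes. PLK1 rose by 0.85 (SE 0.03, adjusted p = 7.4e-08), from 62.3 ± 0.129 to 113 ± 2.2 FPKM, PLK4 by 0.37 and BTG1 by 0.35. SERPINB8 rose by 0.38 and SERPINB6 by 0.16, and SERPINB3 fell by 0.35. The only relatives of SULF2 and TP53INP1 in the list, SULF1 and TP53INP2, were not called in any line in which they were tested.

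**Figure D3:**
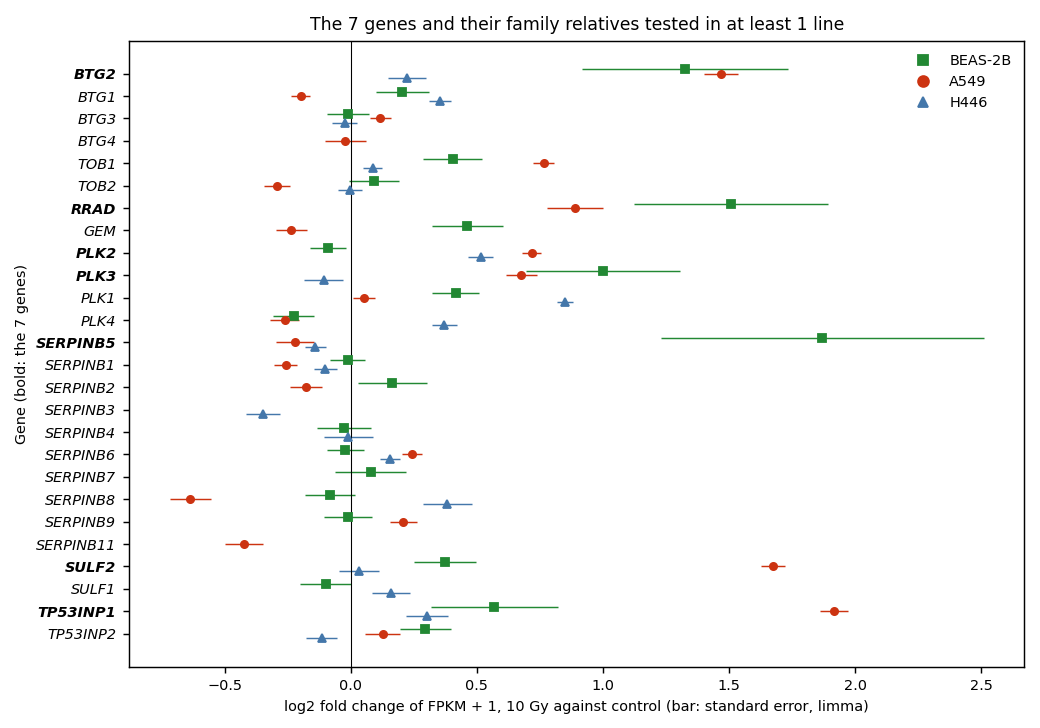
log2 fold change of FPKM + 1 after 10 Gy (x axis, bar: standard error from limma) for the 7 genes (bold) and their family relatives tested in at least 1 line (y axis), with BEAS-2B as squares, A549 as circles and H446 as triangles. The wide BEAS-2B bars include 10 Gy replicate 2, PLK1 is the highest H446 point at 0.85, and SERPINB5 is the highest BEAS-2B point at 1.87.

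Known partners of the 7 proteins were examined next. The 19 partners are subunits of CCR4-NOT, calcium channel beta subunits, heparan sulfate sulfotransferases, HIPK2 and LC3 family members. In BEAS-2B 0 of 15 tested were called by limma with all libraries, with 1 at an unadjusted p under 0.05, and 0 without 10 Gy replicate 2, with 2 at that level. The median was 0.03, and 0.01 without that library. In A549, 8 of 17 were called higher and 3 lower, with a median of 0.01, beside 25.3% and 26.4% of all genes. The 8 include CACNB4, whose controls were all below 1 FPKM and which passed the filter through its irradiated libraries. HIPK2, the kinase that acts with TP53INP1, rose by 0.42 (adjusted p = 3.6e-05), and MAP1LC3B, which encodes an LC3 protein, fell by 0.53 (adjusted p = 4.0e-07). Its relatives GABARAPL2 and GABARAP rose by 0.31 (adjusted p = 2.3e-05) and 0.15 (adjusted p = 0.0101). HS6ST1, a sulfotransferase that adds the sulfate SULF2 removes, rose by 0.33 (adjusted p = 4.0e-04). In H446, 4 of 16 were called higher and 2 lower, with a median of 0.00, beside 14.8% and 23.6% of all genes. HS6ST1 was lower by a log2 fold change of -0.57 (adjusted p = 0.00103). In this line MAP1LC3B rose by 0.22 (adjusted p = 0.00218) and GABARAPL1 by 0.21 (adjusted p = 0.00175), and GABARAP fell by 0.15 (adjusted p = 0.024). CNOT7, a deadenylase bound by BTG proteins, fell by 0.12 in A549 (adjusted p = 0.0345) and rose by 0.16 in H446 (adjusted p = 0.00791).

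The 7 genes were set beside 30 other p53 targets. In BEAS-2B the median over 28 tested targets was 0.45, and 0.76 without 10 Gy replicate 2, beside 0.00 over all genes in both fits. None was called by limma with all libraries, though 19 had an unadjusted p under 0.05. Without that library 22 were called higher, beside 1.9% of all genes, but it was singled out by these same targets. GDF15, a secreted stress cytokine, was at 2.42 (3.41 without replicate 2), CDKN1A, the p21 inhibitor of cyclin-dependent kinases, at 1.56 (2.2) and TP53I3 at 1.46 (2.11). In A549 the median was 0.85, with 27 of 30 called higher and 2 lower, beside 25.3% and 26.4% of all genes. The 27 include SPATA18, whose controls were all below 1 FPKM and which passed the filter through its irradiated libraries. FDXR led with 1.78, MDM2, which targets p53 for degradation, with 1.76 and CDKN1A with 1.54. In H446 the median was -0.01, with 4 of 28 called higher and 4 lower, beside 14.8% and 23.6% of all genes. CCNG1 rose by 0.42 (adjusted p = 5.3e-05), whereas SFN fell by 0.64 and GDF15 fell by 0.59 there. TP63, the p53 relative of basal epithelium, was below the filter in all lines.

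**Figure D4:**
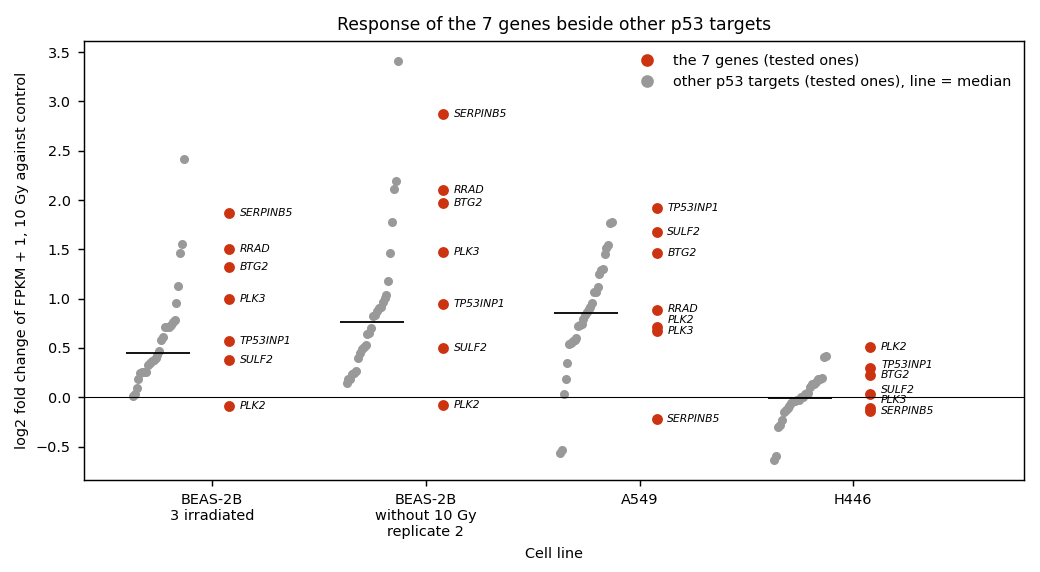
log2 fold change of FPKM + 1 after 10 Gy (y axis) of the 7 genes (red, named) and of other p53 targets (grey, with their median as a line) in BEAS-2B with 3 and with 2 irradiated libraries, in A549 and in H446 (x axis). The grey medians are 0.45, 0.76, 0.85 and -0.01, and PLK2 in BEAS-2B and SERPINB5 in A549 lie below 0.

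The lists of other cell types were described in the same way. In BEAS-2B, 0 of 5 tested epithelial markers, 0 of 1 neuroendocrine and 0 of 4 mesenchymal markers were called by limma, with 1, 0 and 1 at an unadjusted p under 0.05. Without 10 Gy replicate 2 none of them was called by limma, with 0, 0 and 1 at that level. In A549, 1 of 5 epithelial markers was called higher and 1 lower, and 1 of 3 mesenchymal markers lower. Of all genes, 25.3% were called higher and 26.4% lower there. In H446, 3 of 5 epithelial markers were called lower, beside 23.6% of all genes, and 1 of 4 mesenchymal markers higher, beside 14.8%. No lung lineage marker passed the filter in any line. The part of these markers in the results was not tested.

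For each of the 7 genes, the 2 genes with the most similar pattern were sought among 13092 genes, by the root mean square difference over the 18 libraries of log2(FPKM + 1), centred on the control mean of each line. BTG2 was nearest to CDKN1A (0.197) and MDM2 (0.222), RRAD to NECTIN4 (0.189) and TP53I3 (0.204), and TP53INP1 to FDXR (0.154) and TRIM22 (0.209). SULF2 was nearest to POLH (0.129) and CYGB (0.148), and PLK3 to PADI3 (0.0988) and ZNF385A (0.127). PLK2 was nearest to CD24 (0.0663), whose near-identical copies may share reads, and to CCNG2 (0.0943). SERPINB5 was nearest to NR0B1 (0.192), and its next neighbour, LOC112267876 (0.402), was the farthest of the 14. CCNG2 differed from its controls by -0.15 in BEAS-2B (-0.14 without 10 Gy replicate 2), 0.67 in A549 and 0.66 in H446, and NR0B1 by 1.94 (2.89 without it), 0.14 and -0.08. All 14 neighbours were the same without BEAS-2B 10 Gy replicate 2.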

How the data were processed

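RNA-seq libraries of 18 samples were analysed from the table the authors deposited, with groups and replicate numbers taken from the labels. Per the labels, RNA was purified with oligo(dT) beads, and the paper's methods name a BGISEQ-500 and single-end reads 50 bases long. The submitters' processing notes list HISAT2 2.0.4, Bowtie2 2.2.5, RSEM 1.2.12 and the build hg38, without roles. The deposited values were taken as FPKM, a unit inferred from the values, since no source used here names it. The counting is not stated to use strand, so antisense genes cannot be told apart. The depth in reads is unknown, so no counting interval is given.

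The values were transformed to log2(FPKM + 1), and fold changes are on this scale, which understates the change of low genes. Genes with at least 1 FPKM in at least 3 libraries were tested with limma 3.58.1 (lmFit, eBayes with trend, R 4.3.3), for each line alone and for the 9 control libraries in 1 fit. Genes with an adjusted p (Benjamini-Hochberg) under 0.05 were called. Every adjusted p comes from limma. The lists were family relatives, partners, other p53 targets, and epithelial, lung lineage, neuroendocrine and mesenchymal markers. The 7 genes and the lists were chosen with earlier results of these data known. Named were all 7 genes, relatives and partners beside them, the 3 other p53 targets with the largest changes per line and the 2 most similar genes. Scripts were tested on simulated data. Promoter windows came from RefSeq tables and positions from GENCODE 29. REM1, SCGB1A1, NEUROD1 and INSM1 were not analysed here, and some genes of the lists are not reported here.

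The settings varied were quantile normalization, no filter, at least 1 FPKM in every library, a pseudocount of 0.1, no trend, all 18 libraries in 1 fit, removal of the GC trend (loess, span 0.5), the replicate number as a block with and without that removal, and each library left out in turn. Equal library totals were added after the data were seen. Python 3.11.15, pandas 2.3.3, numpy 2.4.6, scipy 1.17.1 and matplotlib 3.10.9 were used.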

Additional observations from a re-analysis of the deposited data

Results flagged for a closer look

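Differences between lines stood out because every irradiated library of one line moved against every irradiated library of the other, relative to the control means. None of these differences between lines was tested. PLK2 differed by -0.81 on the log2 scale between the responses of BEAS-2B and A549 (-0.09 and 0.72), and by -0.60 between BEAS-2B and H446. BTG1 differed by 0.40 between BEAS-2B and A549 and by -0.55 between A549 and H446. GEM differed by 0.70 between BEAS-2B and A549. PLK4 differed by -0.60 between BEAS-2B and H446 and by -0.63 between A549 and H446. SERPINB8 differed by -1.02 between A549 and H446, and SULF1 by -0.26 between BEAS-2B and H446. TP53INP2 differed by 0.41 between BEAS-2B and H446 and by 0.24 between A549 and H446. The BEAS-2B responses in these differences include 10 Gy replicate 2. Without it, they were -0.08 for PLK2 (-0.09 with it), 0.31 for BTG1 (0.20), 0.64 for GEM (0.46), -0.22 for PLK4 (-0.23), -0.11 for SULF1 (-0.10) and 0.31 for TP53INP2 (0.30).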

How the results depend on the processing

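In BEAS-2B, the 0 called genes became 1 with no filter, 822 with all 18 libraries in 1 fit, 439 with the replicate block (0 with the block and the GC trend removed), and 0 to 231 with 1 library left out, 231 without 10 Gy replicate 2. In H446, the 4 called members became 1 with all 18 libraries in 1 fit and 1 to 4 with 1 library left out. In H446, PLK3 was at 0.058 with the GC trend removed, with or without the block, and SULF2 ran from -0.015 (without control replicate 2) to 0.073 with 1 library left out. RRAD between unirradiated A549 and BEAS-2B was at -0.13 with quantile normalization and ran from -0.031 (without A549 control replicate 1) to 0.106 with 1 library left out, being also below 0 without BEAS-2B control replicate 2. The cause of these changes was not tested. Whether the replicate numbers pair the samples is unresolved: same-numbered libraries of a line correlated at -0.13 to 0.32 in their deviations. BEAS-2B control replicates 2 and 3 and H446 control replicates 1 and 2 correlated best with the irradiated library of their own number. The other control libraries, among them all of A549, did not. With the block, 4 members were called in H446, as without it. Over the pairs of a member and an alternative in H446 and between unirradiated lines, 31 calls were lost and 3 were gained (PLK3 between unirradiated H446 and A549 with the GC trend removed, with and without the block, and RRAD between unirradiated A549 and BEAS-2B, at 0.16 with both), without a change of direction. In A549, 4 member values moved by more than the spread between replicates, all with a pseudocount of 0.1. Member calls in BEAS-2B and A549 were not counted, since those contrasts chose the genes. The 3 libraries per group limit the precision.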
